A study of Mus musculus with 6 samples.

Results

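Interleukins and the tumour necrosis factor (TNF) superfamily are the secreted and membrane-bound signals by which epithelial, stromal and immune cells of the gut act on one another, and their receptors decide which cells respond. Members were chosen by the symbol in the deposited probe table, which had to begin with Il, Tnfsf or Tnfrsf followed by a digit, or to be Tnf. The rule found 168 of 25697 probes, for 113 symbols. Of these, 73 probes for 54 symbols were detected on at least 3 of the 6 arrays and could be tested, and the other 59 symbols had no such probe. A probe counts as detected where its signal exceeded the negative control beads of its array with a detection p-value under 0.05. Of the symbols, 6 have another name in the gene table used (Il28ra is Ifnlr1, Il8ra and Il8rb are the chemokine receptors Cxcr1 and Cxcr2, Tnfrsf19l is Relt, Il1rl1l is Tmed1, Tnfsf12-tnfsf13 is Tnfsfm13), and Il16, Il4i1, Il1rl1l, Il8ra and Il8rb are matched by name but belong to none of the families.

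The arrays held total RNA of colon mucosa from wild type c57BL/6 mice (WT, 3 samples) and from mice with both copies of miR-21 deleted on that background (miR-21 KO, 3 samples), all without treatment or induced colitis. The WT mice were bought from Taconic and the KO mice were provided by another laboratory, so genotype and source cannot be told apart in any difference below. The labels give no age, no sex and no number of animals per sample. The p-values therefore rest only on the spread between these samples, which may be technical. That spread is taken partly from the probe itself and partly from all probes tested. The array has no probe for the deleted microRNA. Of 12 listed epithelial markers 9 had probes and all 9 passed the detection filter. Their mean was 10.33 to 10.51 on the log2 scale, though Slc26a3 was detected on only 2 arrays of each group. Smooth muscle markers were similarly bright, at 10.25 to 11.13 in WT and 11.18 to 11.68 in KO. These values therefore do not show how pure the mucosa was.

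Epithelial cells make interleukins 7, 15, 18 and 33, which sustain or alert lymphocytes nearby, whereas interleukin 1 beta, interleukin 10 and TNF come mostly from macrophages and T cells. Each acts through a receptor complex, often of a private chain and a shared one, and decoy receptors that bind without signalling set a limit on some of them. The deleted microRNA binds messenger RNAs mainly through its seed, and its mature form is shown because it is the molecule that the KO mice lack (RefSeq, GRCm38.p6, chr11:86584120-86584141, minus strand, seed bases 2 to 8 in capitals).
mmu-miR-21a-5p: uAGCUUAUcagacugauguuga

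The promoter of Il7r, a receptor gene whose call was kept in all 18 alternatives run, is given from 250 bases before to 50 bases after its RefSeq start (GRCm38.p6, chr15:9529827-9530126, minus strand). It was searched on both strands for TTCNNNGAA, letters of sites for the STAT factors that carry interleukin signals to the nucleus, and the 1 match is in capitals.
Il7r: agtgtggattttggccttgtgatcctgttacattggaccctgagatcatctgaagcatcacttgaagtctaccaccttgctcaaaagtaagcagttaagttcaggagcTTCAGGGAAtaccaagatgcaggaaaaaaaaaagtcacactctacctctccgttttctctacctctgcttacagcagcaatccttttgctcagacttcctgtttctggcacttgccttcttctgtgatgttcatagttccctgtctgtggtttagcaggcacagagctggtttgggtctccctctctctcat
Of 32851 promoters of this length 8.3 percent held TTCNNNGAA. Among tested members with a promoter in the table it was found in 2 of 10 genes lower in KO, 0 of 3 higher and 6 of 32 that did not pass the test. A match is a description of these letters, not a site shown to be used.

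More members were lower than higher in KO. Levels below are normalized intensities on the log2 scale, listed for replicates 1, 2 and 3 of a group in that order. Differences are KO minus WT with their standard error (SE). This SE is the moderated one of the fit, which mixes a probe's own spread with that of all probes tested. It can be smaller (as for Tnfrsf13c) or larger (as for Il20ra) than the probe's own samples alone would give. The fit with limma across 13737 detected probes, miR-21 KO minus WT with Benjamini-Hochberg adjustment over all of them and a threshold of 0.05, called 15 of 73 member probes lower and 3 higher. Among all probes tested, 7.55 percent were lower and 7.53 percent higher. The 15 lower probes stand for 12 symbols (Il15, Il7r, Il1b, Il1r2, Il33, Il10, Il13ra2, Tnfrsf4, Tnfrsf13c, Tnfrsf21, Il4i1 and Il16), and the 3 higher ones for Il11ra1, Tnfrsf11a and Tnfrsf12a. The median log2 difference was -0.21 over the 73 member probes and 0.03 over all probes tested. A probe detected in 1 group alone enters the fit because it differs, so the same counts are given for probes seen on all 6 arrays: 10 of 54 members were lower and 3 higher, beside 8.24 and 8.04 percent of 11436 probes. The lower count was 8 without WT replicate 3, 5 without KO replicate 2 and 5 on the 4 brighter arrays, a choice made after the data were seen. Those 4 arrays leave out replicate 3 of both groups, with median intensities of 97 (WT) and 98.3 (KO) against 108.2 to 115. Calls kept there were Il15 (ILMN_2610234 and ILMN_1219869), Il7r, Il16, Tnfrsf21 (ILMN_2464573) and the higher Tnfrsf12a. Counts over all probes fell on those 4 arrays too, and their range on leaving out 1 array is given in the last section. After median scaling rather than quantile normalization 8 members were lower and 0 higher (limma) while all probes split 343 to 193 in place of 1037 to 1034. Among the calls lost under that scaling were Il33 (adjusted p = 0.257), Il1r2 (0.140), Il10 (0.131), Il16 (0.0566) and both probes of Tnfrsf21 (0.109 and 0.174).

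**Figure D1:**
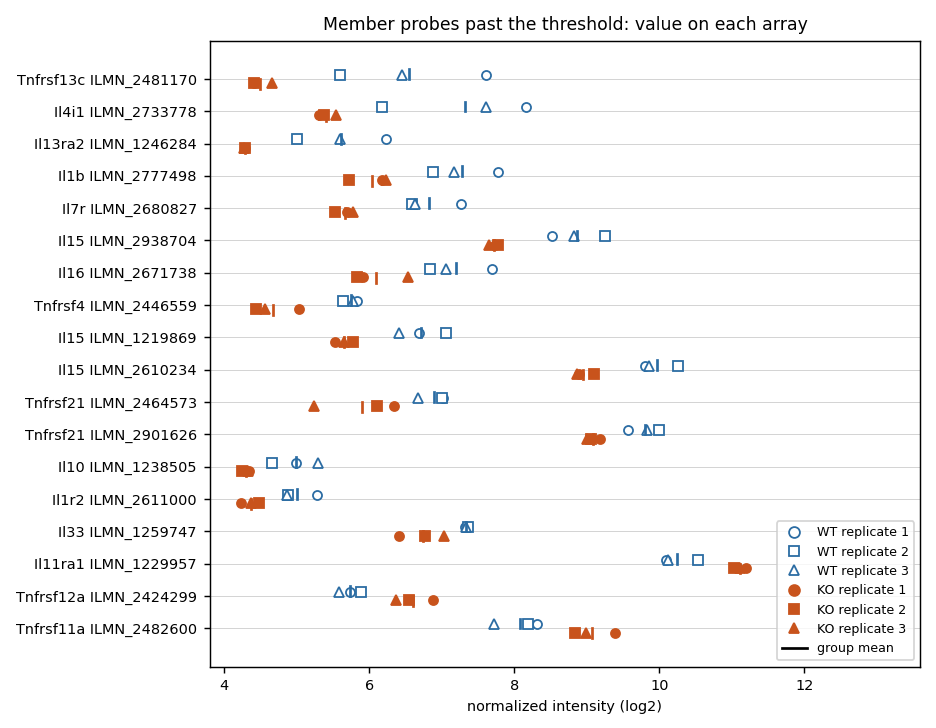
Normalized intensity (log2, horizontal axis) of the 18 member probes past the threshold on each array. Open blue symbols are WT, filled orange symbols KO, the symbol shape is the replicate number and the short vertical lines are group means; for all 18 probes the KO arrays lie on one side of the WT arrays.

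Ligands and receptors were measured to unequal degrees. Of 45 ligand symbols 12 had a tested probe, against 33 of 55 receptors and 6 of 8 decoys or antagonists. Among ligands 6 probes were lower (Il15 on 3 probes, Il1b, Il10 and Il33) and 0 higher with limma (10 and 0 at an unadjusted p under 0.05), and among receptors 5 were lower and 3 higher (11 and 5 at an unadjusted p under 0.05). The share of all probes at an unadjusted p under 0.05 was not counted, so such counts, here and below, have no background beside them. That threshold is loose: with limma, Il18 at an unadjusted p of 0.0505 had an adjusted p of 0.154. The median log2 difference was -0.50 over 15 ligand probes and -0.11 over 48 receptor probes, values that share the limits of the filter. Arrays of the groups did not overlap for 27 member probes with KO below WT and 7 with KO above it, where 17 and 19.4 percent of all probes tested did so. On probes seen on all 6 arrays the counts were 21 and 5 of 54 members, beside 18.7 and 19.9 percent.

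**Figure D2:**
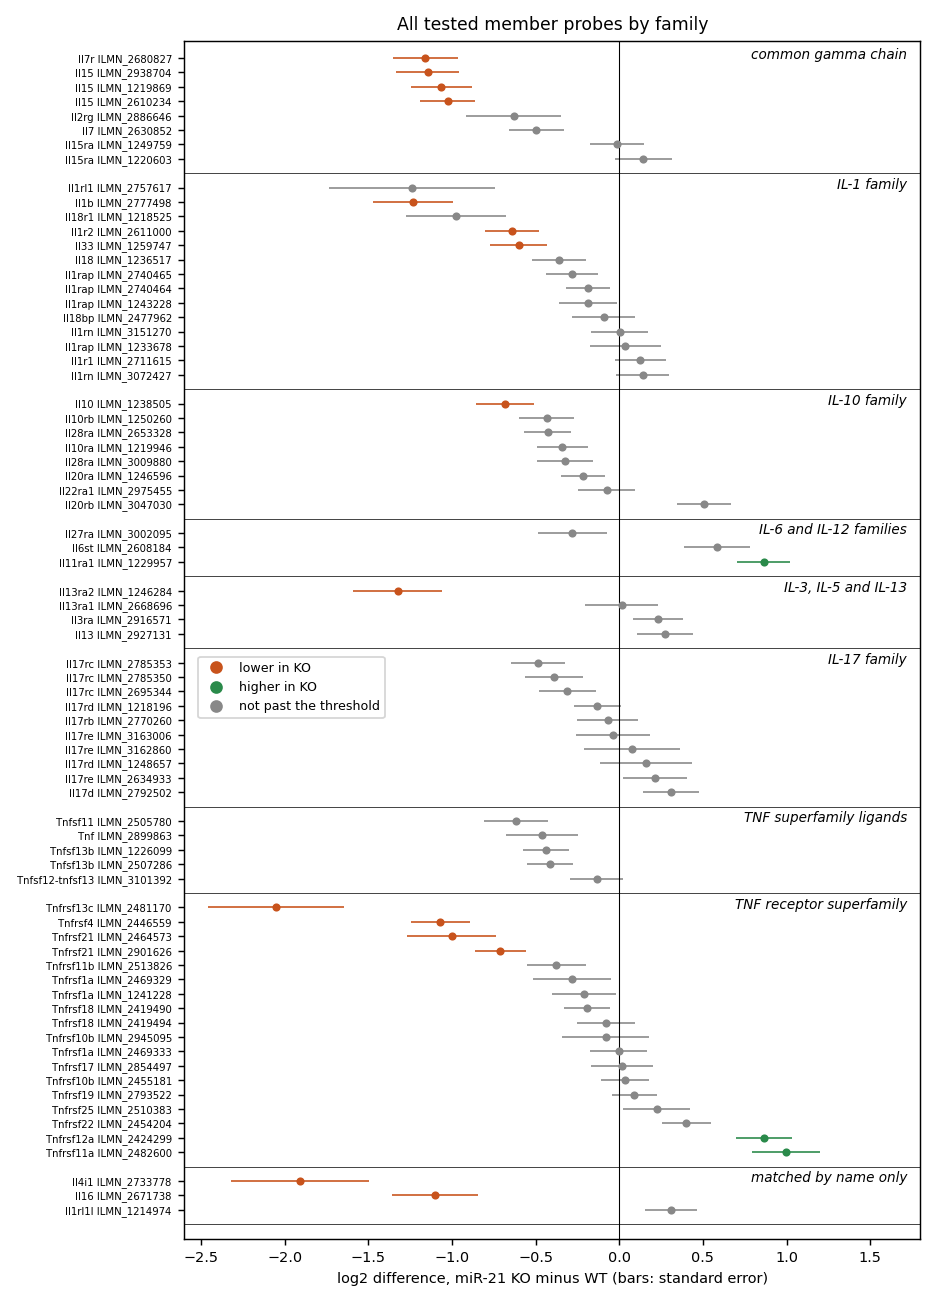
Log2 difference, KO minus WT, with its standard error for all 73 tested member probes, grouped by cytokine family. Orange points are lower and green points higher past the threshold, grey points did not pass; 15 are orange and 3 green.

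In the common gamma chain family 4 of 8 tested probes were lower, 3 of them of Il15. Il15, whose product supports natural killer cells and the lymphocytes that lie within the epithelium, was about 2-fold lower on each of its 3 probes. Probe ILMN_2610234 read 9.80, 10.26 and 9.86 in WT and 8.89, 9.10 and 8.86 in KO, so that the nearest arrays of the groups were 0.71 apart (log2 difference -1.03 ± 0.16, adjusted p = 0.00748, 2.04-fold). Probe ILMN_2938704 read 8.52, 9.25 and 8.83 in WT and 7.73, 7.78 and 7.65 in KO (log2 difference -1.15 ± 0.19, adjusted p = 0.00856). On both, WT replicate 2 was the highest array and the KO arrays lay close together. The call of ILMN_2938704 was lost on the 4 brighter arrays alone (adjusted p = 0.0525). Probe ILMN_1219869 gave the same order of groups, at 6.69, 7.06 and 6.41 in WT and 5.53, 5.78 and 5.65 in KO (log2 difference -1.07 ± 0.18, adjusted p = 0.00958, 0.0765 with median scaling). Its private receptor chain, Il15ra, which presents the cytokine to neighbouring cells, did not pass on either tested probe (log2 differences -0.01 ± 0.16 and 0.14 ± 0.17).

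Il7r, the receptor chain by which T cells and innate lymphoid cells receive interleukin 7, fell 2.23-fold. It read 7.26, 6.60 and 6.63 in WT and 5.69, 5.53 and 5.78 in KO (log2 difference -1.16 ± 0.20, adjusted p = 0.00921), and passed in all 18 alternatives run. The gap between the groups was 0.81, wider than the range of either group. The other 2 Il7r probes were detected on no array. Il7 itself, a survival factor for lymphocytes made by epithelium and stroma, read 8.06, 8.14 and 8.33 in WT and 7.41, 7.76 and 7.88 in KO and did not pass (log2 difference -0.50 ± 0.16, adjusted p = 0.0713), although the KO arrays all lay below the WT arrays. Il2rg, the chain that the whole family shares, stayed between 4.75 and 4.77 in KO and was at 6.07, 4.73 and 5.38 in WT, so WT replicate 2 lay below every KO array (log2 difference -0.63 ± 0.28, adjusted p = 0.157). Il2ra, Il2rb, Il4ra, Il9, Il9r, Il21 and Il21r were detected on no array, and Il4 on 2 WT arrays and 0 KO arrays, too few to test.

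In the interleukin 1 family Il1b, the inflammatory cytokine released after cleavage by caspase 1, fell 2.35-fold. Its probe read 7.78, 6.88 and 7.17 in WT and 6.17, 5.73 and 6.23 in KO (log2 difference -1.23 ± 0.24, adjusted p = 0.0136), with WT replicate 1 the highest and KO replicate 2 the lowest array. Without KO replicate 2 the adjusted p was 0.0587, and the call was also lost on the 4 brighter arrays. Il1rn, the antagonist of the same receptor, had log2 differences of 0.14 ± 0.16 and 0.00 ± 0.17 on its 2 probes, and the groups overlapped on both. Its brighter probe read 8.64, 8.93 and 9.13 in WT and 8.99, 9.13 and 8.99 in KO. Il1rap, the chain that interleukin 1, 33 and 36 receptors share, was called on none of 4 probes (-0.28 to 0.04), nor was Il18bp, the secreted inhibitor of interleukin 18 (-0.09 ± 0.19). Il1a was detected on 1 array and Il1f10 on 2, and Il1f5, Il1f6, Il1f9 and Il1rapl2 on none.

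Il33, an alarm signal kept in the nucleus of stromal and epithelial cells, was 1.52-fold lower and only just past the threshold. The WT arrays were within 0.05 of one another and the KO arrays spread over 0.61, at 7.32, 7.36 and 7.33 in WT and 6.42, 6.76 and 7.03 in KO (log2 difference -0.60 ± 0.17, adjusted p = 0.0445). The call held without KO replicate 3 (adjusted p = 0.0270) and was lost without each other array, at 0.1, 0.0791 and 0.0998 without WT replicates 1 to 3 and 0.129 and 0.126 without KO replicates 1 and 2. Il1rl1, which encodes the receptor for Il33, read 7.48, 5.77 and 7.22 in WT and 4.62, 5.89 and 6.25 in KO, and the groups overlapped (log2 difference -1.24 ± 0.49, adjusted p = 0.118). Il18, a cytokine stored in colon epithelium, read 12.20, 12.30 and 11.94 in WT and 11.96, 11.82 and 11.58 in KO (log2 difference -0.36 ± 0.16, adjusted p = 0.154), with KO replicate 1 above WT replicate 3.

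Genes of interleukin 1 receptors lie side by side on chromosome 1 in the order Il1r2, Il1r1, Il1rl2, Il1rl1, Il18r1, Il18rap (GRCm38.p6), and of these Il1r2 passed the test. Il1r2, a decoy that binds interleukin 1 without signalling, was detected on all 3 WT arrays and on 0 KO arrays. It read 5.28, 4.88 and 4.87 in WT and 4.24, 4.49 and 4.37 in KO and was at least 1.39-fold lower (adjusted p = 0.0300). Such a bound sets the WT mean against, per KO array, the higher of the probe's own value and the lowest value of any detected probe. It compares group means and takes no account of the spread between samples. Probes given a bound, here and below, passed the filter through 1 group alone. The call of Il1r2 was kept without WT replicate 2 (0.0337) and lost without each other array, at 0.0905 and 0.0543 without WT replicates 1 and 3 and at 0.0938, 0.0818 and 0.0562 without KO replicates 1 to 3. The signalling receptor Il1r1 was dim, detected on 1 WT and 2 KO arrays (0.12 ± 0.15). Il18r1, a receptor chain of T and natural killer cells, came nearest to the threshold of all members that missed it, at 6.03, 5.32 and 6.53 in WT and 4.67, 4.88 and 5.41 in KO (log2 difference -0.98 ± 0.30, adjusted p = 0.0562), and KO replicate 3 lay above WT replicate 2. It passed without WT replicate 2 (0.0146) and without KO replicate 3 (0.0452). Il1rl2 was detected on 1 array and Il18rap on none.

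Il10, the cytokine that restrains macrophages and T cells and whose loss causes colitis in mice, was lower in KO but close to background in both groups. Deposited intensities were 118.1, 115 and 104.7 in WT and 100.7, 96.8 and 92.8 in KO, and the probe was detected on 3 WT and 0 KO arrays. After normalization it read 4.996, 4.67 and 5.30 in WT and 4.34, 4.24 and 4.33 in KO, and was at least 1.37-fold lower (adjusted p = 0.0315). That call too was kept without WT replicate 2 (0.0141) and lost without each other array, at 0.0825 and 0.0828 without WT replicates 1 and 3 and at 0.0765, 0.112 and 0.0576 without KO replicates 1 to 3. Its receptor chains did not pass, with Il10ra at -0.34 ± 0.15 and Il10rb, which receptors for interleukins 10 and 22 share, at -0.43 ± 0.16 (adjusted p = 0.159 and 0.101), and for both the KO arrays lay below the WT arrays.

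Among other receptors of that family, Il20rb had 1 tested probe of 5, the others being detected on too few arrays. That probe was detected on 0 WT arrays and all 3 KO arrays, at 4.37, 4.32 and 4.53 in WT and 5.09, 5.01 and 4.64 in KO. Its bound on the group means was 1.24-fold, and it did not pass (adjusted p = 0.0619). It passed without KO replicate 3 (0.0332). Ifnlr1, the lambda interferon receptor of epithelium (Il28ra in the deposited table), had differences of -0.43 ± 0.14 and -0.32 ± 0.17 on its 2 tested probes (adjusted p = 0.0691 and 0.213). Il20ra did not pass either (-0.22 ± 0.13). Il22ra1, the epithelial chain for interleukin 22, was detected on 2 arrays of each group (-0.07 ± 0.17). Il22, Il19 and Il20 were detected on no array, and Il24 and Il22ra2, the soluble interleukin 22 inhibitor, on 2 WT arrays each.

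Il11ra1, the private receptor chain for interleukin 11 on stromal cells, was 1.82-fold higher in KO. It read 10.09, 10.53 and 10.12 in WT and 11.19, 11.03 and 11.11 in KO (log2 difference 0.86 ± 0.16, adjusted p = 0.0120). Its KO arrays spread over 0.15 and stood 0.50 above the highest WT array. With median scaling the adjusted p was 0.144, and the call was also lost on the 4 brighter arrays. Il6st, the chain shared by receptors for interleukins 6 and 11, read 7.18, 7.63 and 7.08 in WT and 7.66, 8.18 and 7.80 in KO (log2 difference 0.59 ± 0.20, adjusted p = 0.0739) and did not pass, with a gap of 0.03 between the groups. It passed in 3 of 18 alternatives (array weights, the replicate block and leaving out WT replicate 2). Il27ra had -0.28 ± 0.21. The ligands Il6, Il11, Il12a, Il12b and Il27 were detected on no array, nor were the receptor chains Il12rb2, Il23r and Il31ra; Il6ra was detected on 2 KO arrays, Il12rb1 on 1 array and Il23a on 1 KO array; Il12a is known as a target of the deleted microRNA in mouse cells, and no level could be given for it.

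Il13ra2, a decoy that takes up interleukin 13, was detected on all WT arrays and on 0 KO arrays. It read 6.23, 5.001 and 5.596 in WT and 4.29, 4.28 and 4.28 in KO, with WT replicate 1 the highest, and was at least 2.12-fold lower (adjusted p = 0.0151). The KO values lay below the lowest detected values of their arrays (4.52, 4.53 and 4.54), so their closeness is that of background readings. The probe passed the filter through WT alone. Without KO replicate 2 the adjusted p was 0.0574. The call was also lost without background correction, without the filter and on the 4 brighter arrays. Il13ra1, the signalling receptor chain, was bright and read 10.10, 10.46 and 9.70 in WT and 10.27, 10.25 and 9.78 in KO (log2 difference 0.01 ± 0.22, adjusted p = 0.976). Il13, the type 2 cytokine that both receptors bind, was detected on 1 WT and 3 KO arrays (0.27 ± 0.17). Il3ra, the private chain of the interleukin 3 receptor, was detected on all KO arrays and on 0 WT arrays. Its bound on the group means was 1.05-fold, and it did not pass (adjusted p = 0.312). Il3 and Il5 were detected on no array and Il5ra on 1.

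Interleukin 17 and its receptors showed no call in either direction: 0 of 10 tested probes passed with limma, and 2 of them, both of Il17rc, had an unadjusted p under 0.05, each with a negative difference. Il17rc, the chain that pairs with Il17ra on epithelium, had negative differences on its 3 probes (-0.49 ± 0.16, -0.39 ± 0.17 and -0.31 ± 0.17, lowest adjusted p 0.0726). Il17re, an epithelial receptor chain, had 0.21 ± 0.19, 0.08 ± 0.29 and -0.04 ± 0.22. Il17rb was at -0.07 ± 0.18 and the ligand Il17d at 0.31 ± 0.17, and Il17rd had -0.13 ± 0.14 and 0.16 ± 0.28. Il17ra, the shared receptor chain, was detected on 1 array. The T cell cytokines Il17a and Il17f, and Il25 of tuft cells, were, like Il17b and Il17c, detected on no array.

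TNF receptors changed in both directions. Tnfrsf13c, the receptor by which B cells receive the survival factor BAFF, fell and was detected on 3 WT arrays and 1 KO array. It read 7.61, 5.59 and 6.45 in WT and 4.41, 4.42 and 4.66 in KO (log2 difference -2.05 ± 0.41, adjusted p = 0.0147). The fitted fold of 4.15 takes KO replicates 1 and 2 at values not above background, where only an upper limit of the level is known. The WT arrays alone spread over 2.02, and without KO replicate 2 the adjusted p was 0.0564. The ligand, Tnfsf13b, was not called on either probe (-0.44 ± 0.14 and -0.41 ± 0.14, adjusted p = 0.0628 and 0.0745), though the KO arrays of both lay below the WT arrays. Tnfrsf17, the receptor of plasma cells for the same ligand, read 6.78, 6.37 and 6.55 in WT and 6.29, 6.57 and 6.90 in KO and overlapped between the groups (log2 difference 0.02 ± 0.19, adjusted p = 0.968). Tnfrsf13b was detected on no array.

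Tnfrsf4 (OX40), a costimulatory receptor of activated T cells, fell, with a fitted fold of 2.10 that takes KO replicate 2 at a value not above background. It read 5.83, 5.64 and 5.77 in WT and 5.03, 4.44 and 4.57 in KO, with a gap of 0.62, and KO replicate 1 was the highest of the KO arrays (log2 difference -1.07 ± 0.18, adjusted p = 0.00833, detected on 2 KO arrays). The call was lost on the 4 brighter arrays alone (adjusted p = 0.0534). The neighbour of Tnfrsf4 on chromosome 4, Tnfrsf18, another costimulatory receptor, was not called on either probe (-0.19 ± 0.14 and -0.08 ± 0.17). Tnfrsf21, a death domain receptor, was lower on both of its tested probes. Probe ILMN_2901626 read 9.57, 9.996 and 9.83 in WT and 9.19, 9.06 and 9.01 in KO (log2 difference -0.71 ± 0.15, adjusted p = 0.0194), and ILMN_2464573 read 7.02, 7.003 and 6.68 in WT and 6.34, 6.11 and 5.24 in KO, where KO replicate 3 stood far below the other KO arrays (log2 difference -1.003 ± 0.26, adjusted p = 0.0350). The first call was lost without WT replicate 3 (0.0562) or KO replicate 2 (0.0813), and the second without any WT replicate (0.0978, 0.0697 and 0.0654 for replicates 1 to 3) or KO replicate 2 (0.0805).

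Tnfrsf11a (RANK), the receptor through which epithelial cells of the gut are turned towards antigen-sampling M cells, rose 2.00-fold. It read 8.31, 8.18 and 7.72 in WT and 9.39, 8.84 and 8.99 in KO, with a gap of 0.53 between the groups (log2 difference 1.00 ± 0.20, adjusted p = 0.0155). The ligand of that receptor, Tnfsf11, read 5.17, 4.63 and 5.34 in WT and 4.55, 4.34 and 4.41 in KO and did not pass (log2 difference -0.62 ± 0.19, adjusted p = 0.0598), and its adjusted p was 0.0140 without WT replicate 2. The soluble decoy for that ligand, Tnfrsf11b, was at -0.38 ± 0.18 with overlapping groups. Tnfrsf12a (Fn14), a receptor raised in injured tissue, was 1.82-fold higher, at 5.73, 5.88 and 5.58 in WT and 6.88, 6.55 and 6.37 in KO (log2 difference 0.86 ± 0.17, adjusted p = 0.0140). Without KO replicate 2 the adjusted p was 0.0545. With median scaling neither rise passed (adjusted p = 0.0967 for Tnfrsf11a and 0.0751 for Tnfrsf12a). The rise of Tnfrsf11a was also lost on the 4 brighter arrays.

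Tnf was dim, detected on 2 arrays of each group, at 5.36, 4.58 and 5.06 in WT and 4.26, 4.65 and 4.70 in KO (log2 difference -0.46 ± 0.22, adjusted p = 0.171), and the groups overlapped. Its main receptor Tnfrsf1a did not pass on any of 3 probes (-0.28 ± 0.23, -0.21 ± 0.19 and -0.00 ± 0.17), and the second receptor, Tnfrsf1b, was detected on no array. The death receptor Tnfrsf10b had -0.08 ± 0.26 and 0.03 ± 0.14, and Tnfrsf25, a death domain receptor of T cells, 0.22 ± 0.20. Tnfrsf22, a decoy of mice, had 0.40 ± 0.15 with the KO arrays above the WT arrays (adjusted p = 0.0939), Tnfrsf19 had 0.09 ± 0.14, and Tnfsfm13, a transcript that joins a pair of ligand genes, -0.13 ± 0.16. Tnfsf10, Tnfsf12, Tnfsf14, Tnfsf15, Tnfsf18, Tnfsf4, Tnfsf8 and Tnfsf9 were detected on no array, as were the receptors Tnfrsf8, Tnfrsf23 and Tnfrsf26. The 1 probe listed as Tnfrsf19l was detected on no array either, whereas a probe that the deposited table lists under the current symbol of that gene, Relt, and that the symbol rule does not take, was detected on all 6 arrays and did not pass (-0.39 ± 0.19, adjusted p = 0.178). Tnfrsf9 was detected on 2 arrays and Tnfrsf14, an epithelial and lymphocyte receptor, on 2 KO arrays alone.

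Il4i1, matched by name only, encodes an amino acid oxidase of B cells and phagocytes and was 3.75-fold lower. It read 8.16, 6.17 and 7.61 in WT and 5.32, 5.37 and 5.54 in KO (log2 difference -1.91 ± 0.41, adjusted p = 0.0191), with WT replicate 2 far below the other WT arrays and still above every KO array. Without WT replicate 3, KO replicate 1 and KO replicate 2 its adjusted p was 0.0671, 0.0557 and 0.0680. Il16, a chemoattractant for T cells that is not related to the other interleukins, read 7.70, 6.83 and 7.06 in WT and 5.92, 5.83 and 6.54 in KO and was 2.14-fold lower (log2 difference -1.10 ± 0.26, adjusted p = 0.0244). Leaving out WT replicate 1 or 3 (0.0660 and 0.0578), or KO replicate 1 or 2 (0.0745 and 0.0954), ended the call. The probe listed as Il1rl1l, for the transport protein Tmed1, did not pass (0.31 ± 0.16).

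**Figure D3:**
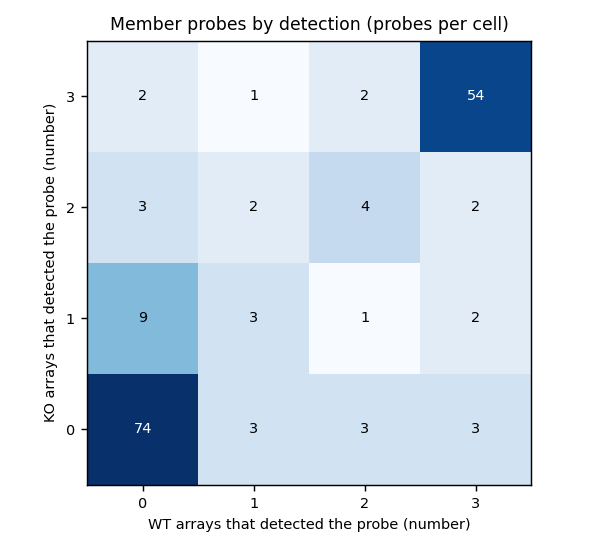
Number of member probes by the number of WT arrays (horizontal axis) and KO arrays (vertical axis) that detected them. Of the 168 probes 54 were detected on all 6 arrays and 74 on none; 3 were detected on all WT and no KO arrays, and 2 on all KO and no WT arrays.

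Many cytokines were not detected in this untreated mucosa. Of the 59 symbols without a tested probe, 46 were detected on no array and 13 on 1 or 2 arrays. A probe that is not detected gives only an upper limit set by the negative control beads, and does not show that the gene is silent. The deposited intensity of Il6, for example, was 102.2, 107.5 and 95.3 in WT and 102.1, 94.2 and 93.3 in KO. Among symbols with several tested probes, all probes passed for 2 (Il15 and Tnfrsf21), some for 0 and none for 11.

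Some markers of immune cells were lower in KO. Of 5 tested B cell markers all 5 were lower in KO, with a mean log2 level of 5.98 to 7.51 in WT and 4.94 to 5.03 in KO (Cd79a had no probe, and Cr2, Ms4a1 and Pax5 were not tested). Of 10 markers of T, natural killer and innate lymphoid cells 5 were lower (6.18 to 6.87 against 5.59 to 5.92, with Cd8a detected on no array), and of 10 macrophage markers 4 (8.03 to 8.41 against 7.44 to 7.92, with Itgam detected on no array). On WT replicate 2 the B cell, T cell and macrophage lists were the lowest of the WT arrays and the neutrophil list was the highest. Of the 15 lower member probes 8 were lowest there among WT arrays (Tnfrsf13c, Il4i1, Il13ra2, Il1b, Il16, Il7r, Il10 and Tnfrsf4), 4 on WT replicate 1 and 3 on WT replicate 3. The same count over all lower probes was not made. All 3 Il15 probes, Il33 and 1 probe of Tnfrsf21 were instead highest on WT replicate 2. In bulk tissue fewer cells of a type and less RNA per cell cannot be told apart, and the part of these lists in the member differences was not tested. The mean of the epithelial markers differed little (10.45 to 10.51 against 10.33 to 10.47), with Vil1 and Krt20 lower among its 9 genes.

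Endothelial markers were higher in KO for 4 of 6 genes (5.37 to 5.63 in WT and 6.28 to 6.41 in KO), 1 of 7 fibroblast markers was higher (9.23 to 9.75 against 9.74 to 9.81), and 5 of 5 adipocyte markers (4.998 to 7.65 against 8.60 to 10.07, with Plin1 not tested). These are given beside Il11ra1, Tnfrsf11a and Tnfrsf12a, the members that were higher, and their part in those differences was not tested. Of 6 smooth muscle markers 1 was higher (10.25 to 11.13 against 11.18 to 11.68). At an unadjusted p under 0.05 the higher markers were 6 of 6 for smooth muscle, 5 of 6 for endothelium, 2 of 7 for fibroblasts and 5 of 5 for adipocytes, and the lower ones 7 of 10 for T cells, 6 of 10 for macrophages and 5 of 5 for B cells. The share of all probes at this looser threshold was not counted, so these counts cannot be set against a background. Of 4 plasma cell, 3 tuft cell and 3 mast cell markers 0, 0 and 1 were higher and 0 lower with limma (for plasma and tuft cells also 0 at an unadjusted p under 0.05). Tnfrsf17 is among the plasma cell markers through the same probe as above, so that list is not independent of the members. Neutrophil markers, where 0 of 3 passed with limma and 3 were lower at an unadjusted p under 0.05, had a mean of 5.93 to 7.44 in WT and of 4.75 to 5.74 in KO, and Cxcr2, which is also a member as Il8rb, was detected on no array.

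**Figure D4:**
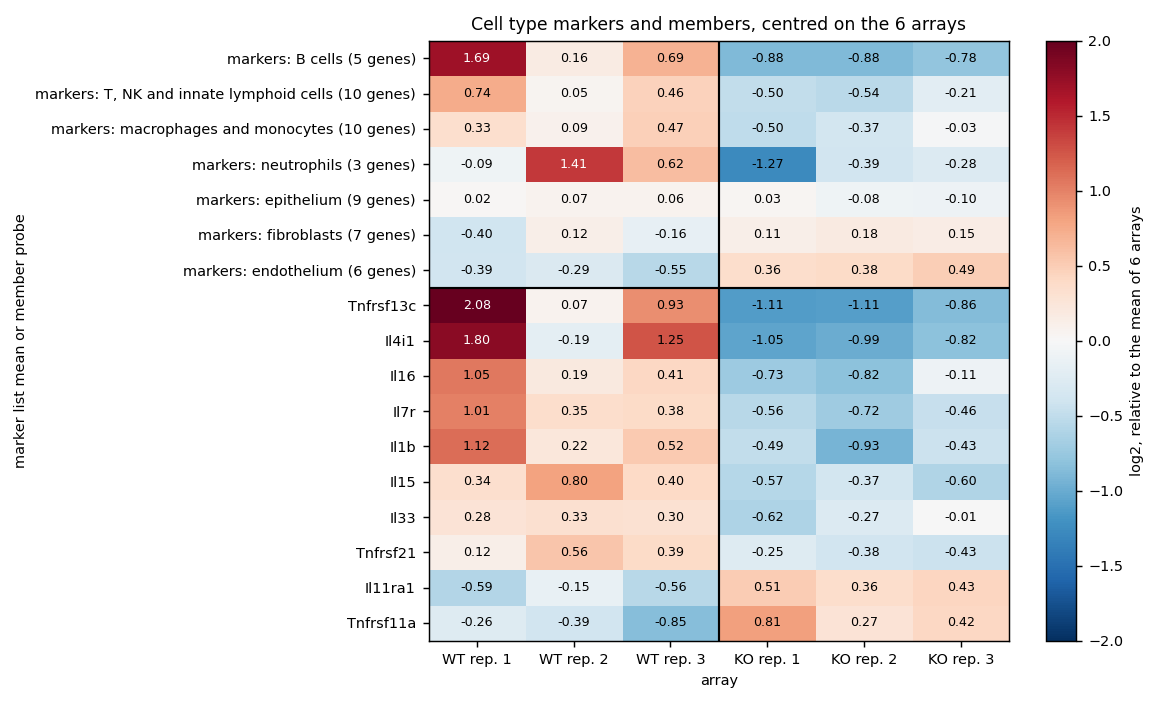
Mean of cell type marker lists (upper 7 rows) and level of 10 member probes (lower rows) on each array, in log2 relative to the mean of the 6 arrays; red is above and blue below it. The B cell and T cell lists, Tnfrsf13c, Il4i1, Il16, Il7r and Il1b are highest on WT replicate 1 and lowest in WT on replicate 2, whereas Il15 is highest on WT replicate 2.

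Probes outside the symbol rule, for genes that act with these members, were read from 4 lists, which hold Relt as a gene of 1 of the families. Of 70 tested genes 10 were lower and 2 higher, beside 7.55 and 7.53 percent of all probes tested, with each gene read by its brightest tested probe. Of 17 cytokine and TNF receptor family genes, Relt among them, 2 were lower and 1 higher (median log2 difference -0.42). They were Cd27, a T and B cell receptor (-0.93 ± 0.23), Ifngr1, a chain of the interferon gamma receptor (-0.66 ± 0.17), and Ltbr, the lymphotoxin beta receptor of stroma and epithelium (0.61 ± 0.17).

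Of 14 genes of JAK-STAT signalling, which carries most interleukin signals, 3 were lower and 0 higher with limma (3 and 2 at an unadjusted p under 0.05, median -0.23). Stat4, the factor that answers interleukin 12 in T and natural killer cells, fell 2.85-fold, at 7.15, 5.63 and 6.23 in WT and 4.66, 4.74 and 5.09 in KO, while another probe did not pass (-0.83, adjusted p = 0.0751). The kinase Jak2 fell on both of its probes (-0.76 ± 0.16 and -0.79 ± 0.14), as did Ptpn6, a phosphatase of blood cells (-0.91 ± 0.23 and -0.87 ± 0.19). Of 31 genes of TNF and interleukin 1 receptor signalling 3 were lower, the kinase Map3k7 (-0.63 ± 0.15) and the inhibitors Nfkbie (-0.66 ± 0.16) and Tnfaip3 (-0.52 ± 0.15), and 1 was higher, the adaptor Tab1 (0.57 ± 0.14; another probe did not pass, 0.35 ± 0.18). The median of that list was -0.11. Of 8 genes of cytokine maturation 2 were lower and 0 higher with limma (3 and 0 at an unadjusted p under 0.05): Casp1, which cleaves interleukins 1 beta and 18, at 13.32, 13.20 and 13.32 in WT and 12.52, 12.39 and 12.72 in KO (-0.74 ± 0.14, adjusted p = 0.0135), and Casp4 (-1.01 ± 0.27, with its other 2 probes not past the threshold). The count of 10 lower and 2 higher fell to 2 and 0 without WT replicate 1, WT replicate 3 or KO replicate 1, and to 0 and 0 without KO replicate 2. The range of counts over all probes on leaving out 1 array is given in the last section.

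**Figure D5:**
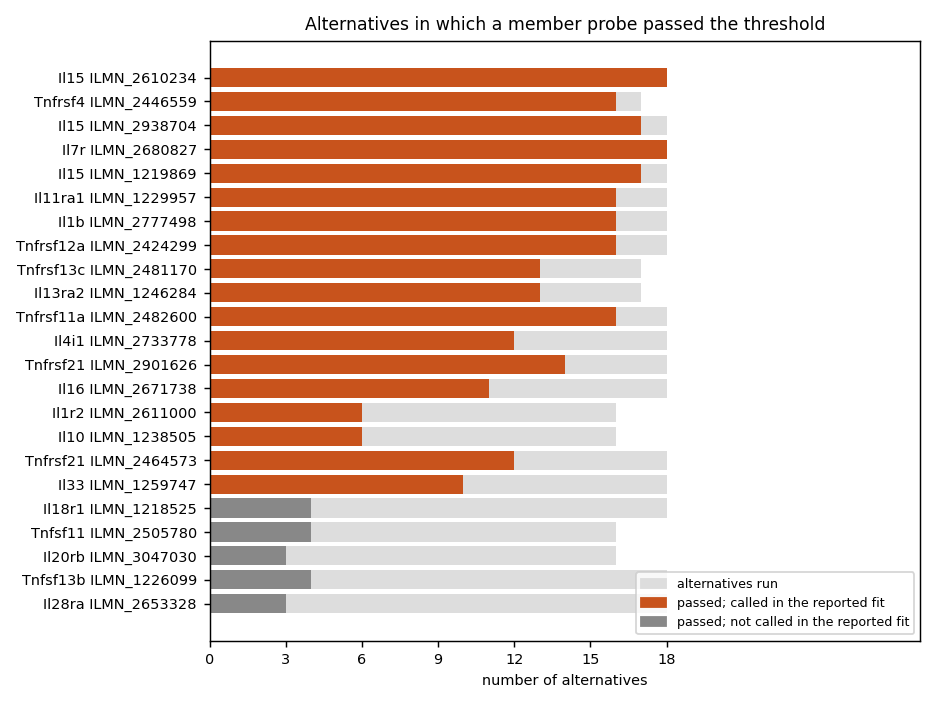
Number of alternatives in which each of 23 member probes passed the threshold (coloured bars) of the number in which it could be tested (light bars). Orange bars are the 18 probes past the threshold in the reported fit and grey bars the 5 nearest to it; ILMN_2610234 of Il15 and the Il7r probe passed in 18 of 18, Il1r2 and Il10 in 6 of 16.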

How the data were processed

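Colon mucosa RNA was measured on 6 one-colour bead arrays, 1 per sample. The probe table that the authors deposited gives each probe an intensity (its mean over beads, linear and not normalized, with array medians of 97 to 115) and a detection p-value, per the file headers. Bead errors and bead numbers in the same deposited table (other values; a median of 32 to 39 beads) described the arrays only. Of all probes 50.4 to 54.6 percent were detected, and the small number of arrays limits the precision. A second table of 18010 probes holds log2 values that the authors deposited after normalizing them. Against the values computed here they correlated at r of 0.9999 on each array, with column medians of 5.82 to 5.83 and a median difference of 0.04, which settled their scale and direction. How their probes were kept was not found. The submitters' processing notes name limma, without its role.

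Here neqc (limma 3.58.1, in R 4.3.3, with statmod 1.5.0) was run: background from the detection p-values, quantile normalization, offset 16, log2. Probes detected on at least 3 of 6 arrays went into lmFit and eBayes (KO minus WT, 2 sided, no covariate), a script tested on simulated data. "Lower", "fell", "higher" and "rose" refer to an adjusted p under 0.05. Errors are the moderated SE of that fit and n is 3 per group, where an exact permutation cannot give a p below 0.1. Deviations of same-numbered arrays from their group means correlated at 0.01, 0.15 and 0.06, so the numbers were not taken as pairs. Replicate 3 was nevertheless the dimmest array of both groups.

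Symbols were updated through a RefSeq table (GRCm38.p6), since the files name no build. Named members were those past the threshold, those detected on all arrays of 1 group and on none of the other, the 5 nearest misses and a list by role, with others named as undetected or as neighbours and partners of these. Named genes outside the symbol rule were those past the threshold in 4 lists. Members and lists were chosen with earlier results of these data known. Alternatives covered background correction, normalization, the filter, the fit, the authors' log2 values and leaving out each array.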

Additional observations from a re-analysis of the deposited data

How the results depend on the processing

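Repeats were tallied for 23 member probes, the 18 past the threshold and the 5 nearest to it. Of 403 repeats in 18 alternatives, 315 kept direction and call, 70 lost the call, 18 gained it and 0 changed sign. These probes were picked for their low p in the same data, so a change of sign was unlikely. Some other tested members did change sign, such as Il13ra1 in 6 of 18 alternatives and Tnfrsf17 in 5 of 18 (differences of 0.01 and 0.02). Counts are lower and higher. Members: median scaling 8 and 0, no filter on dim probes 8 lower, array weights 24 and 6, 4 brighter arrays (added after the data were seen) 5 lower; leaving out 1 array gave 5 to 18 lower and 2 to 4 higher. All probes: median scaling 343 and 193, array weights 1813 and 1959, 4 brighter arrays 472 and 367; leaving out 1 array gave 242 to 1063 lower and 218 to 1053 higher. Genes of the 4 lists: normexp with offset 50 gave 4 higher, median scaling 3 and 0, cyclic loess 1 higher, no filter 6 and 1, array weights 18 and 4, 4 brighter arrays 4 and 0; leaving out 1 array gave 0 to 12 lower and 0 to 2 higher (limma). The member median of -0.21 was -0.0577 with no background correction, -0.0876 with normexp offset 50, -0.28 on probes detected on all 6 arrays, -0.28 at detection p under 0.01, -0.26 with array weights and -0.25 to -0.18 without 1 array. With the replicate block 17 members were lower and 4 higher. Il18r1 and Tnfsf11 (adjusted p = 0.0180 and 0.0440) and Il6st passed, and no named call was lost. The WT arrays did not all correlate best with the KO array of their own number. Without a background correction or a filter, Il13ra2, Tnfrsf13c, Il4i1, Il16, Il10 and Il1r2 missed the threshold; the cause was not tested. Probes not detected on all 6 arrays have no value in that alternative. Signals of Il10, Il1r2, Il13ra2, Il20rb, Tnf, Tnfrsf13c, Tnfrsf4 and Tnfsf11, among others, lay at or near background on part of the arrays, which limits their folds.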
